A study of Mus musculus with 6 samples.

Results

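Growth factor receptor genes, Myc and the genes of the multidrug transporter P-glycoprotein were followed in irradiated prostates with and without the p53 mutation R270H. The set holds the receptors Egfr, Erbb2, Erbb3, Met, Igf1r, Pdgfrb and Tgfbr2, together with Myc, Abcb1a and Abcb1b, so 10 of the 47719 genes listed for each mouse. They were picked by symbol, as genes for which mutant p53 has been linked to a gain of function (the human MDR1 gene corresponds to Abcb1a and Abcb1b in the mouse), and all 10 had a mean level above the filter of 1 FPKM that defined the 13818 genes tested. FPKM are fragments per kilobase of transcript, scaled to the number of mapped fragments, so levels can be compared between genes.

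Prostate RNA came from 6 mice of the strain B6.129S4-Trp53tm3.1Tyj/J, aged about 3 months, each killed 6 h after 5 Gy given to the whole body. Wildtype mice 39 and 41 had 0 R270H alleles, heterozygous mice 37 and 40 had 1, and homozygous mice 47 and 49 had 2, where the numbers are those of the animals. All 6 mice were irradiated, so the values are levels after irradiation and no baseline was analysed here. The labels name no Cre driver or cell type to which the mutation is limited. Each library was made from whole prostate tissue, in which fewer cells of a type and less RNA per cell cannot be told apart.

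Receptor tyrosine kinases such as EGFR, ERBB2, ERBB3, MET, IGF1R and PDGFRB bind extracellular growth factors or pair with a receptor that does, and pass the signal to the ERK and AKT kinases. TGFBR2 is instead a serine/threonine kinase receptor that signals to SMAD proteins, and MYC is a transcription factor induced by many growth signals. P-glycoprotein is a membrane pump that uses ATP to move drugs and lipids out of cells, and rodents make it from a pair of neighbouring genes where humans have one. Wildtype p53 can repress or activate several of these genes, and mutant forms have been studied for acting on them in other ways.

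The fits compared log2(FPKM + 0.1) between genotypes with limma, which borrows information on the spread from all tested genes, and fold changes are on that scale. With 2 mice per genotype, an exact test of 2 against 2 mice cannot go below p = 0.333. The homozygous and heterozygous comparisons share the same 2 wildtype mice, so their values are given side by side.

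The libraries checked against their labels as follows. Trp53 itself lay between 17.3 and 21.4 FPKM in the 6 mice. The 4 wildtype p53 targets Cdkn1a, Mdm2, Bax and Ccng1 were lower in homozygous mice, with limma adjusted p under 0.05 in 4 of 4. The authors had already reported these 4 genes as changed in the same mice, so they are no independent check. Depth estimated from the lowest values was 23.5 to 34.3 M fragments per mouse. Homozygous mouse 47 stood apart. Among markers of the luminal epithelium, the secretory genes Pbsn (257 FPKM against 7329 to 11512 in the other mice) and Msmb (387 against 1683 to 4708) were low, and Hoxb13 was at its lowest there (77.0 against 105 to 154), while the keratins Krt8 (179 FPKM, 134 to 189 in the others) and Krt18 (367, 351 to 462 in the others) were within the range of the other mice. Of the seminal vesicle genes, Svs4 and Svs5 were listed at 0 in mouse 47 and Svs2 in both homozygous mice. Svs6 had 26147 FPKM in mouse 47 against 28.6 to 1021 in the others. Wildtype mouse 39 also stood apart, as these 4 genes summed to 3346 FPKM there against 26147 to 53082 in the other mice. Svs2, Svs4 and Svs5 had 256, 1331 and 1731 FPKM in mouse 39, against 11018, 8028 and 24908 FPKM in wildtype mouse 41. The part of this tissue in the differences from wildtype was not tested. The 6 skeletal muscle markers summed to 1293 and 1943 FPKM in the wildtype, 3661 and 3878 in the heterozygous and 3940 and 4437 in the homozygous mice. The 5 endothelial markers summed to 34.3 and 41.8, then 54.1 and 58.9, then 46.5 and 55.6 FPKM in the same order of genotypes.

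The counts over the 10 genes are read against those over all tested genes. In homozygous against wildtype mice, 3 of the 10 genes had an unadjusted limma p under 0.05, against 18.0% of the tested genes. Igf1r and Abcb1a were higher (8.65% of tested genes were called in that direction) and Abcb1b was lower (9.32%). After adjustment, 0 of the 10 genes passed, against 0.384% or 53 of the tested genes. In heterozygous against wildtype mice, Abcb1a and Abcb1b had an unadjusted limma p under 0.05, 2 of 10 against 6.87% of the tested genes (4.66% higher and 2.21% lower), and after adjustment 0 of 10 genes and 0.0% of the tested genes passed, with 949 tested genes at an unadjusted p under 0.05. Between homozygous and heterozygous mice, 0 of 10 genes had an unadjusted limma p under 0.05, against 6.39% of the tested genes, and 0 passed adjustment, against 0.0145%. The moderated F-test over the 3 genotypes gave the same 3 genes an unadjusted p under 0.05 (11.5% of tested genes) and 0 an adjusted one (0.101%).

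**Figure D1:**
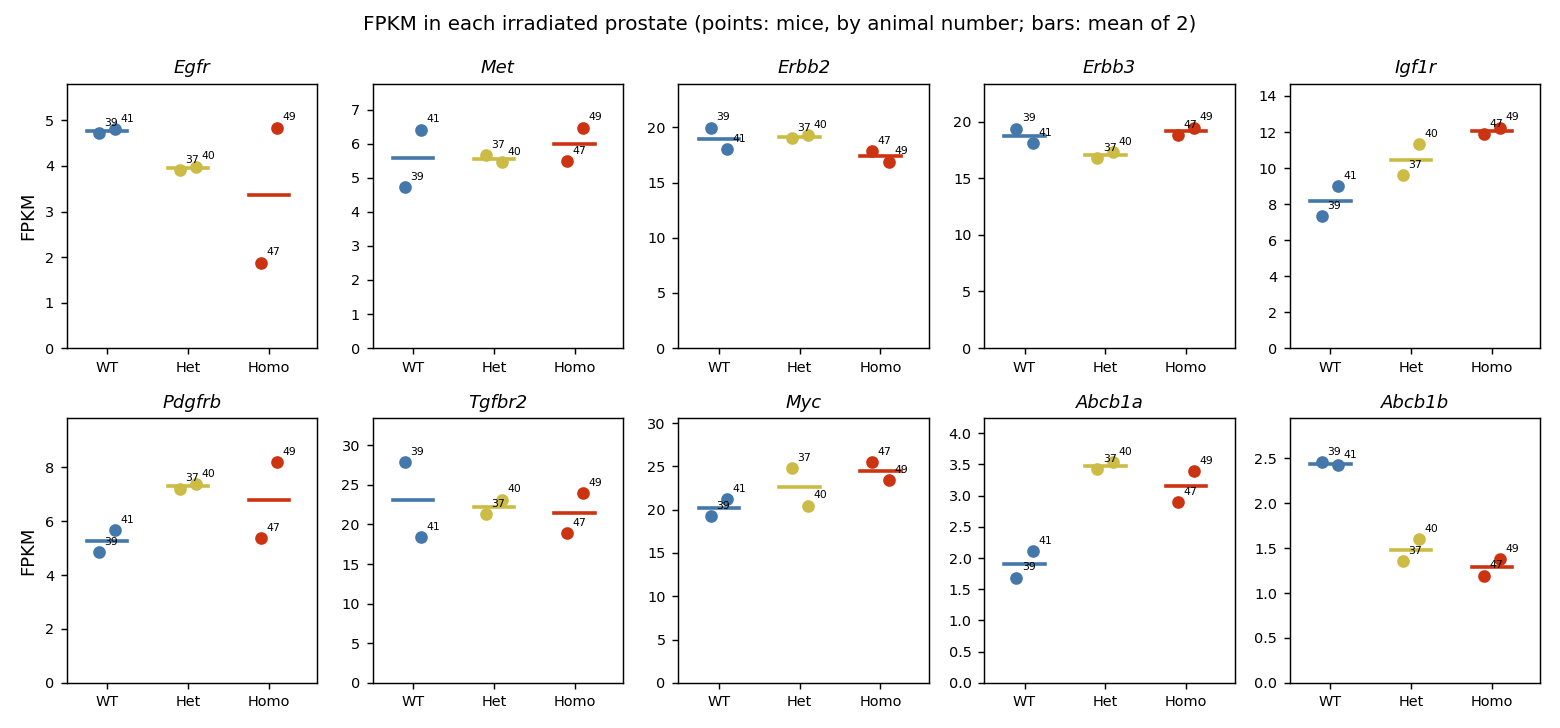
FPKM of the 10 genes (vertical axes, each starting at 0) in the 6 mice by genotype, wildtype (WT), heterozygous (Het) and homozygous (Homo). Points are mice with their animal number and bars are means of 2 mice. Igf1r runs from 7.33 in a wildtype to 12.2 in a homozygous mouse, Abcb1a and Abcb1b differ from wildtype in opposite directions, and Egfr is low in mouse 47.

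Levels ranged widely among the 10 genes. Tgfbr2 (18.4 to 27.8 FPKM over the 6 mice), Myc (19.2 to 25.4), Erbb2 (16.9 to 20.0) and Erbb3 (16.8 to 19.5) had the highest levels, and their ranges overlapped. Igf1r came next with 7.33 to 12.2, and its range overlapped only that of Pdgfrb (4.85 to 8.18) among its neighbours. Met (4.73 to 6.47) and Egfr (1.88 to 4.84) followed, each overlapping the gene before it, and Abcb1a (1.69 to 3.53) and Abcb1b (1.2 to 2.45) had the lowest levels, which put their means at the 19.1 and 9.81 percentiles of the tested genes.

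The multidrug transporters were the 2 genes of the 10 with an unadjusted limma p under 0.05 in both comparisons with wildtype. Abcb1a and Abcb1b encode the mouse P-glycoproteins, of which the Abcb1a product is known for the blood vessel barrier of the brain and the Abcb1b product for the adrenal gland and the pregnant uterus. Both lie on the plus strand of chromosome 5, Abcb1a at chr5:8660077-8748575 and Abcb1b 49.6 kb further on at chr5:8798147-8866315 of GRCm38, with Abcb4, a phospholipid transporter, 27.4 kb beyond at chr5:8893717-8959231.

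Because the transcripts are similar, the stretches that tell them apart are shown first. In the GENCODE M21 transcripts, the coding sequences matched at 88.0% of 3822 aligned bases and differed at 459. The 60 bases with the most differences are printed 5′ to 3′ on the coding strand, with the 25 differing bases in capitals (bases 1913 to 1972 of the Abcb1a coding sequence and 1922 to 1981 of that of Abcb1b, counted from the start codon).
Abcb1a: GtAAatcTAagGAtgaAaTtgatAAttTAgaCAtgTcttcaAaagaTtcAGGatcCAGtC
Abcb1b: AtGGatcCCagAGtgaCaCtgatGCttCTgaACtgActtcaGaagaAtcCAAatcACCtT
The longest run in common was 338 bases. Of all 100-base windows in each transcript, 7.72% of those of Abcb1a were also found in Abcb1b or Abcb4 and 8.72% of those of Abcb1b in Abcb1a, so reads from these stretches could be assigned to either gene, while 0 windows of the other 8 genes were found in another gene.

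Abcb1a had 1.69 and 2.12 FPKM in the wildtype, 3.43 and 3.53 in the heterozygous and 2.90 and 3.40 in the homozygous mice. The 4 mice with a mutant allele lay above both wildtype mice, and the homozygous values lay below the heterozygous ones. The log2 fold change was 0.85 in heterozygous mice (SE 0.20, unadjusted p = 0.006, adjusted p = 0.413 in limma) and 0.70 in homozygous mice (SE 0.20, unadjusted p = 0.015, adjusted p = 0.193 in limma).

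Abcb1b showed the opposite pattern, with 2.45 and 2.42 FPKM in the wildtype, 1.36 and 1.60 in the heterozygous and 1.2 and 1.38 in the homozygous mice. Both wildtype values stood above those of the 4 mice with a mutant allele, and the heterozygous and homozygous values overlapped. The log2 fold change was -0.69 in heterozygous mice (SE 0.25, unadjusted p = 0.032, adjusted p = 0.657 in limma) and -0.87 in homozygous mice (SE 0.25, unadjusted p = 0.013, adjusted p = 0.188 in limma). Of the tested genes, 24.1% kept all 4 mutant mice apart from both wildtype mice, as Igf1r, Abcb1a and Abcb1b did among the 10 genes.

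The order of the pair changed with the genotype. Abcb1b made up 59.3% and 53.4% of the summed FPKM in the wildtype, 28.3% and 31.2% in the heterozygous and 29.2% and 28.9% in the homozygous mice. The ratio of Abcb1a to Abcb1b was thus 0.69 and 0.87 in wildtype mice and between 2.21 and 2.53 in the other 4. The sum of both genes was 4.14 and 4.54 FPKM in the wildtype, 4.78 and 5.13 in the heterozygous and 4.10 and 4.78 in the homozygous mice. When the pair was summed before the fit, a choice made after seeing the data, the log2 fold change was 0.19 in heterozygous mice (95% interval -0.20 to 0.57, adjusted p = 0.899 in limma) and 0.03 in homozygous mice (95% interval -0.36 to 0.41, adjusted p = 0.939 in limma).

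**Figure D2:**
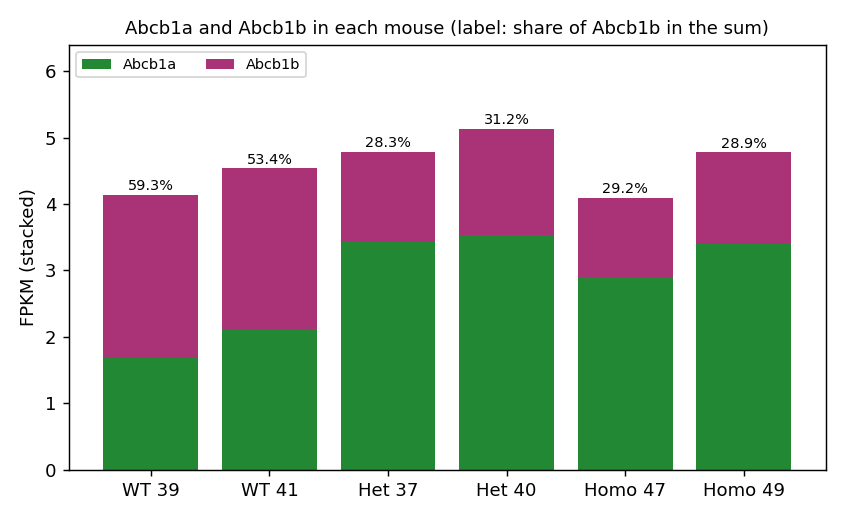
FPKM of Abcb1a (green) and Abcb1b (purple) stacked for each mouse, labelled by genotype and animal number, with the share of Abcb1b in the sum printed above each bar. The sums lie between 4.10 and 5.13 FPKM in the 6 mice, and the share of Abcb1b is 59.3% and 53.4% in wildtype mice and 28.3% to 31.2% in the other 4.

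Both genes rest on few fragments. The estimated depth puts Abcb1a at about 246 to 582 fragments per mouse and Abcb1b at about 121 to 308, which gives a counting error of 4.14% to 6.38% for a single value of Abcb1a and of 5.70% to 9.08% for one of Abcb1b. Of 5 endothelial markers, 3 were higher in homozygous and 4 in heterozygous mice with unadjusted limma p under 0.05, and 0 adjusted. Emcn overlapped between genotypes, at 4.41 and 10.7 FPKM in the wildtype and 7.30 to 10.1 in the other mice. Of the skeletal muscle markers, 6 of 6 were higher in both comparisons (0 adjusted). Over all tested genes 8.65% were higher in homozygous and 4.66% in heterozygous mice. The part of these 2 tissues in the level of Abcb1a was not tested. Without mouse 47 the homozygous log2 fold changes were 0.81 for Abcb1a and -0.78 for Abcb1b, and without wildtype mouse 39 they were 0.55 and -0.87. Over the fits that left out 1 mouse, the homozygous unadjusted p in limma ranged from 0.017 to 0.070 for Abcb1a, where it passed 0.05 without mouse 39 (0.070) and without mouse 49 (0.063), and from 0.019 to 0.047 for Abcb1b. The heterozygous unadjusted p ranged from 0.009 to 0.039 for Abcb1a and from 0.028 to 0.128 for Abcb1b, which was over 0.05 without mouse 39 (0.091), 41 (0.093), 37 (0.128) or 40 (0.052).

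The promoters of the pair are shown because p53 binding sites have been studied there and both genes had an unadjusted p under 0.05. RefSeq sequence of GRCm38.p6 is printed for the 250 bases before each start, 5′ to 3′ on the plus strand, chr5:8566841-8567090 for Abcb1a and chr5:8797897-8798146 for Abcb1b, with a p53 half-site in capitals where one was found.
Abcb1a: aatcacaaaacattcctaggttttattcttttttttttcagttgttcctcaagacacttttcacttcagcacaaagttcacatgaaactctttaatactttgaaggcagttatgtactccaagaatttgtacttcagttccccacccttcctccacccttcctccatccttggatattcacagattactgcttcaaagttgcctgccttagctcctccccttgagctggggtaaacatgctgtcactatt
Abcb1b: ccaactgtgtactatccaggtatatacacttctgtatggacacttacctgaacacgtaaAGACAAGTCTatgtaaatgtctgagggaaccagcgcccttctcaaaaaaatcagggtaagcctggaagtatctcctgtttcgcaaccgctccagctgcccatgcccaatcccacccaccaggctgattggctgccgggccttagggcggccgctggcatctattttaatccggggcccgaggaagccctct
Searched on both strands, from 250 bases before to 50 bases after the start, were the p53 half-site consensus, the CCAAT box, the GC box written GGGCGG and the TATA box written TATAAA. Abcb1b had 1 half-site, AGACAAGTCT, whose first base lies 191 bases before the start (8797956 to 8797965), with a CCAAT box at -87, a second on the other strand at -66 and a GC box at -48. Abcb1a had 0 matches to any of these. Its RefSeq start (8567091) lies far upstream of the GENCODE start, and which start was used in these prostates was not analysed here. A half-site was found in 8.36% of 32851 promoters, a CCAAT box in 37.4%, a GC box in 35.7% and a TATA box in 13.6%. Among the other members with a promoter in the table (Met, Igf1r, Tgfbr2, Egfr and Erbb2), Tgfbr2 had 1 half-site, GAGCTTGTTT, at -214. A match in these letters is a description of the sequence and does not show that p53 was bound.

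**Figure D3:**
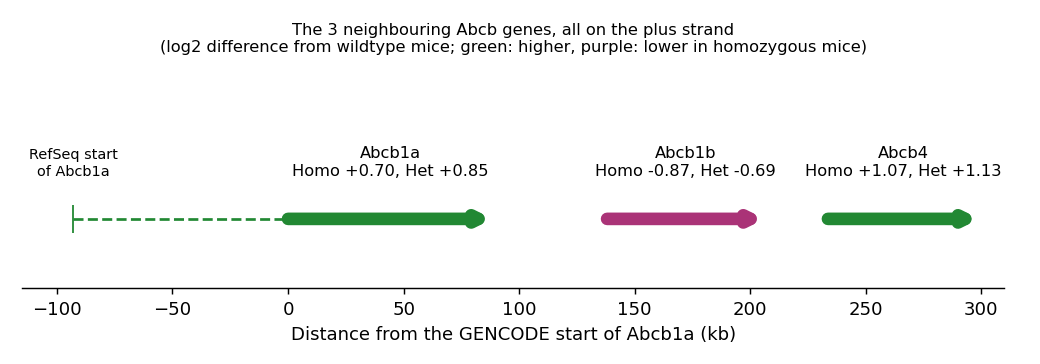
Abcb1a, Abcb1b and Abcb4 drawn to scale as arrows along the plus strand, with the distance from the GENCODE start of Abcb1a in kb on the horizontal axis, and the log2 fold change of homozygous (Homo) and heterozygous (Het) mice against wildtype printed above. Abcb1b (-0.87 and -0.69) lies between 2 genes with positive values, and the dashed line leads to the RefSeq start of Abcb1a.

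Other drug and lipid transporters of the ABC family were compared in the same way. Of 8 listed genes 6 were tested, and all 6 had an unadjusted limma p under 0.05 in homozygous against wildtype mice, 4 higher and 2 lower, with 0 passing adjustment. Over all tested genes the shares were 18.0%, 8.65% and 9.32%. The median log2 fold change of the 6 was 0.64, against -0.04 over all tested genes. In heterozygous mice 2 of the 6 (Abcb4 and Abcg2) were higher with unadjusted p under 0.05, against 4.66% of the tested genes, and 0 passed adjustment.
Abcg2, the breast cancer resistance protein, had 4.79 and 14.4 FPKM in the wildtype, 22.8 and 19.3 in the heterozygous and 62.6 and 37.3 in the homozygous mice. These values were ordered by allele number, although the wildtype mice themselves were far apart. The homozygous log2 fold change was 2.52 (unadjusted p = 0.003, adjusted p = 0.136 in limma). It was 1.74 without wildtype mouse 39 and 2.15 without mouse 47. Abcb4, next to Abcb1b, had 1.18 and 1.29 FPKM in wildtype mice and 2.23 to 3.53 in the other 4 (homozygous log2 fold change 1.07). Abcc1, a pump for glutathione conjugates, had 2.89 and 3.51, then 3.98 and 4.32, then 4.81 and 5.33 FPKM in wildtype, heterozygous and homozygous mice (log2 fold change 0.65). Abcc5 was also higher in homozygous mice (log2 fold change 0.63), while Abcc3, at 27.3 and 31.5 FPKM in wildtype and 10.5 and 16.1 in homozygous mice, and Abcc4, at 12 and 10.6 against 5.41 and 7.61, were lower. Abcb11 and Abcc2 were below the filter.

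**Figure D4:**
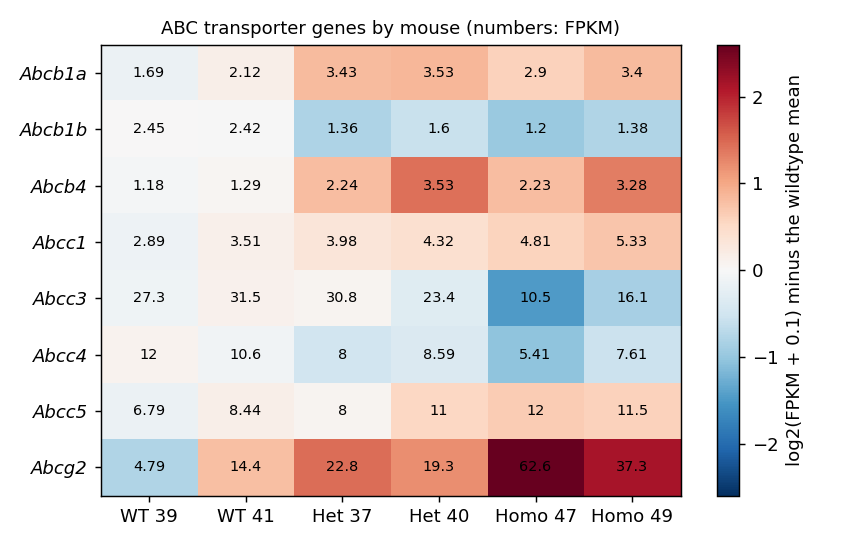
ABC transporter genes (rows) in the 6 mice (columns, by genotype and animal number), coloured by log2(FPKM + 0.1) minus the wildtype mean, with FPKM printed in each cell. Abcg2 reaches 62.6 in mouse 47, and Abcb1b, Abcc3 and Abcc4 are below the wildtype mean in the homozygous mice.

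Igf1r, the receptor for the insulin-like growth factors (chr7:67952827-68233668, plus strand), was the gene of the 10 whose values followed the number of mutant alleles. It had 7.33 and 9.02 FPKM in the wildtype, 9.59 and 11.3 in the heterozygous and 11.9 and 12.2 in the homozygous mice. Such an order by allele number without overlap was shown by 1 of the 10 genes and by 8.83% of the tested genes, 3.85% in the rising direction. The exact permutation test of the slope on allele number gave a two-sided p = 0.022, the smallest that 90 assignments of the mice allow. Over all tested genes 15.7% were under 0.05 in this test, and among the 10 genes Abcb1b also was (two-sided exact p = 0.044). The log2 fold change was 0.35 in heterozygous mice (SE 0.16, unadjusted p = 0.065, adjusted p = 0.779 in limma) and 0.56 in homozygous mice (SE 0.16, unadjusted p = 0.012, adjusted p = 0.185 in limma). Without mouse 47 the homozygous value was 0.59, and without wildtype mouse 39, which had the lowest level, it was 0.42 with unadjusted p = 0.067 in limma.

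Other genes of the IGF system were compared as a list. Of 13 ligands, receptors, binding proteins and adaptors, 12 were tested, 0 were higher and 1 was lower with unadjusted limma p under 0.05 in homozygous mice (18.0% of tested genes either way), and the median log2 fold change was -0.11. The lower gene was Igfbp2, a binding protein that sequesters the ligands. It had 177 and 133 FPKM in the wildtype, 166 and 115 in the heterozygous and 96.8 and 96.6 in the homozygous mice (log2 fold change -0.66, adjusted p = 0.233 in limma). Igfbp7, which had the highest level in the list, was at 231 and 194, 263 and 240, and 185 and 229 FPKM. The ligand Igf1 overlapped between the genotypes, at 6.44 and 5.05, 5.58 and 7.64, and 4.62 and 11 FPKM.

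The 3 genes of the ERBB family had unadjusted limma p above 0.05 in each comparison. Egfr, the receptor for EGF and its relatives (chr11:16752203-16918158), had 4.73 and 4.80 FPKM in the wildtype, 3.90 and 3.99 in the heterozygous and 1.88 and 4.84 in the homozygous mice 47 and 49. The heterozygous mice lay below the wildtype mice, and the homozygous mice lay on either side of them. The log2 fold change in homozygous mice was -0.64 (95% interval -1.66 to 0.39, adjusted p = 0.460 in limma). It was 0.02 without mouse 47 and -1.30 without mouse 49, so mouse 47 set the value. In that mouse Egf (49.3 FPKM), Pbsn and Msmb were also low, and their part in the level of Egfr was not tested.

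Erbb2, a receptor with no ligand of its own that pairs with other members of the family (chr11:98412470-98437716), had 20.0 and 18.0 FPKM in the wildtype, 19.0 and 19.3 in the heterozygous and 17.9 and 16.9 in the homozygous mice. The homozygous values lay just below the wildtype ones, with a log2 fold change of -0.13 (95% interval -0.40 to 0.15, adjusted p = 0.587 in limma). Its annotated 3′ end overlaps Mien1, which lies on the opposite strand and had a mean of 106 FPKM. Erbb3, a receptor for neuregulins with little kinase activity (chr10:128567523-128589652), had 19.4 and 18.1, then 16.8 and 17.3, then 18.8 and 19.5 FPKM in wildtype, heterozygous and homozygous mice. Its heterozygous values were the lowest, with a log2 fold change of -0.13 (95% interval -0.40 to 0.13). Its homozygous values overlapped the wildtype ones (0.03, 95% interval -0.23 to 0.30).

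Among the ligands of these receptors, Egf was lower in mice with a mutant allele. It is made in large amounts by the prostate, and had 169 and 163 FPKM in the wildtype, 143 and 135 in the heterozygous and 49.3 and 111 in the homozygous mice. These values were ordered by allele number. The log2 fold change was -0.26 in heterozygous mice (unadjusted p = 0.501, adjusted p = 0.949 in limma). In homozygous mice it was -1.17 (unadjusted p = 0.020, adjusted p = 0.210 in limma). Without mouse 47, in which Pbsn and Msmb were also low, the homozygous value was -0.58, and the part of these secretory genes in it was not tested. Tgfa, another EGFR ligand, was at 5.02 and 6.08, 4.09 and 4.07, and 3.92 and 4.23 FPKM (log2 fold change -0.43 in both comparisons with wildtype). In all, 2 of 6 tested ligands were lower and 0 higher with unadjusted limma p under 0.05 in homozygous mice. Over all tested genes the shares were 9.32% and 8.65%, and 5 of 11 ligands were below the filter. Of 9 tested partners and regulators, 1 was higher and 0 lower in homozygous mice with unadjusted limma p under 0.05, against 8.65% and 9.32%. The higher gene was Lrig1, a membrane protein that restrains ERBB receptors. It was at 2.63 and 2.66, 3.91 and 4.49, and 4.18 and 5.75 FPKM (homozygous log2 fold change 0.87, adjusted p = 0.155 in limma). Shc1, an adaptor and the most abundant of that list, was at 46.5 and 50.8 FPKM in wildtype and 41.9 and 45.1 in homozygous mice.

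Met, the receptor for hepatocyte growth factor (chr6:17463800-17573980), had 4.73 and 6.41 FPKM in the wildtype, 5.66 and 5.45 in the heterozygous and 5.49 and 6.47 in the homozygous mice. The 3 genotypes overlapped, and the log2 fold change was 0.01 in heterozygous mice (95% interval -0.46 to 0.48) and 0.11 in homozygous mice (95% interval -0.36 to 0.58). Its ligand Hgf was below the filter. The 7 tested genes of the pathway are mostly proteases that activate the ligand and their inhibitors. In homozygous mice 1 was higher and 1 lower with unadjusted limma p under 0.05, against 8.65% and 9.32% of the tested genes. The lower one was St14, which encodes the protease matriptase, with 66.0 and 77.6, 59.5 and 49.8, and 42.8 and 42.6 FPKM in order of genotype (log2 fold change -0.74, adjusted p = 0.128 in limma). Hpn, the protease hepsin, was higher (log2 fold change 0.82, and 0.49 without wildtype mouse 39), and Spint2, an inhibitor of both, was at 741 and 754 FPKM in wildtype and 560 and 534 in homozygous mice (log2 fold change -0.45, unadjusted p = 0.063 in limma).

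Pdgfrb, a receptor of pericytes and fibroblasts for platelet-derived growth factor (chr18:61045150-61085061), had 4.85 and 5.66 FPKM in the wildtype, 7.21 and 7.38 in the heterozygous and 5.36 and 8.18 in the homozygous mice. The heterozygous values stood above the wildtype ones, and the homozygous mice were spread over both. The log2 fold change was 0.47 in heterozygous mice (95% interval -0.08 to 1.02, adjusted p = 0.825 in limma) and 0.33 in homozygous mice (95% interval -0.22 to 0.89). It was 0.63 in homozygous mice without mouse 47 and 0.03 without mouse 49. The 4 fibroblast markers had the same order in the homozygous mice, with a summed level of 250 to 590 FPKM there, 418 to 461 in heterozygous and 340 to 375 in wildtype mice, and their part in the level of Pdgfrb was not tested. Of the 5 other genes of the PDGF system 0 had an unadjusted limma p under 0.05 (18.0% of tested genes in homozygous against wildtype mice). Pdgfa, the ligand with the highest level, was at 17.4 and 19.3, 19.7 and 16, and 20.7 and 16.7 FPKM, and Pdgfc, with the smallest p, at 5.35 and 7.16 FPKM in wildtype and 3.97 and 5.45 in homozygous mice.

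Tgfbr2, which binds TGF-beta (chr9:116084293-116175360, minus strand), had 27.8 and 18.4 FPKM in the wildtype, 21.3 and 23.1 in the heterozygous and 18.9 and 24.0 in the homozygous mice. The wildtype mice were farther apart than the genotypes, and the homozygous log2 fold change was -0.09 (95% interval -0.65 to 0.47). In homozygous mice, 2 of 16 tested genes of the pathway were higher and 1 lower with unadjusted limma p under 0.05. Over all tested genes 18.0% were under 0.05 either way, 8.65% higher and 9.32% lower. The ligand Tgfb1 was at 7.13 and 9.78 FPKM in wildtype mice and 11.4 to 13.1 in the other 4, with log2 fold changes of 0.60 in heterozygous and 0.54 in homozygous mice (the latter 0.32 without wildtype mouse 39). Ltbp1, which holds the latent ligand in the matrix, was also higher (0.57), and Smad2, a transducer, was lower (-0.40). Smad4, the common partner and the most abundant of the list, overlapped at 35.1 and 31.4, 26.8 and 32.8, and 25.5 and 33.6 FPKM.

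Myc (chr15:61985391-61990374) had 19.2 and 21.3 FPKM in the wildtype, 24.8 and 20.5 in the heterozygous and 25.4 and 23.4 in the homozygous mice. Both homozygous mice were above both wildtype mice, and the heterozygous mice overlapped the wildtype ones. The log2 fold change was 0.27 in homozygous mice (95% interval -0.08 to 0.62, unadjusted p = 0.103, adjusted p = 0.364 in limma). The 11 listed growth genes that MYC is known to regulate were all tested. In homozygous mice 0 were higher and 0 lower with unadjusted limma p under 0.05, against 18.0% of the tested genes either way. Their median log2 fold change was -0.05. Ldha, a glycolytic enzyme and the most abundant, was at 285 and 404 FPKM in wildtype and 299 and 311 in homozygous mice, and Ncl, the nucleolar protein nucleolin, at 69.5 and 75.2 against 58.7 and 64.1. Of 8 tested genes of the MYC network, 0 were higher and 1 lower in homozygous mice with unadjusted limma p under 0.05. Over all tested genes the shares were 8.65% and 9.32%. The lower gene was Mxd4, which competes with MYC for its partner. It was at 83.9 and 90.4, 90.6 and 77.2, and 65.3 and 69.6 FPKM (log2 fold change -0.37, adjusted p = 0.248 in limma).

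**Figure D5:**
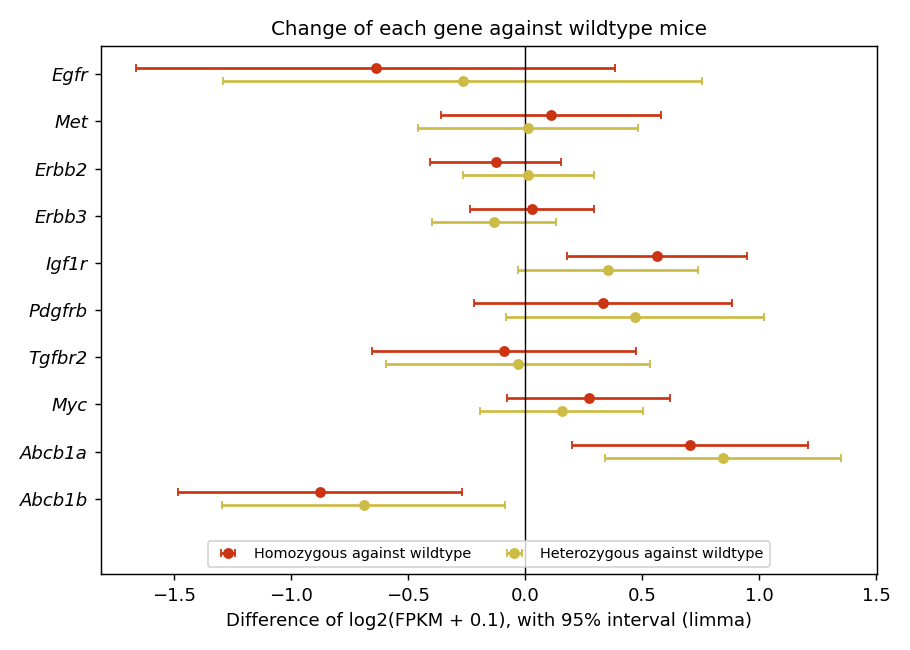
Log2 fold change against wildtype of the 10 genes (rows) in homozygous (red) and heterozygous (yellow) mice, with 95% intervals from limma on log2(FPKM + 0.1). The homozygous intervals of Igf1r, Abcb1a and Abcb1b exclude 0, and that of Egfr is the widest, from -1.66 to 0.39.

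Groups that do not overlap were common with 2 mice each. Homozygous and wildtype values did not overlap in 5 of the 10 genes (Igf1r, Myc and Abcb1a higher, Erbb2 and Abcb1b lower) and in 50.0% of the tested genes. Heterozygous and wildtype values did not overlap in 6 of the 10 (Igf1r, Pdgfrb and Abcb1a higher, Egfr, Erbb3 and Abcb1b lower) and in 39.0% of the tested genes. A fold change of at least 1.5 in homozygous mice was reached by Abcb1a, Abcb1b and Egfr, 3 of 10 against 17.3%, and in heterozygous mice by Abcb1a and Abcb1b, 2 of 10 against 9.25%.

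Genes downstream of and parallel to the receptors were listed as well. Of 11 genes of feedback on the ERK pathway, all tested, 2 were higher and 2 lower in homozygous mice with unadjusted limma p under 0.05. The shares over all tested genes were 8.65% and 9.32%. Dusp4, a phosphatase that inactivates ERK, had 0.87 and 3.17 FPKM in the wildtype, 4.14 and 6.12 in the heterozygous and 8.02 and 8.0 in the homozygous mice (log2 fold change 2.19, adjusted p = 0.173 in limma, and 1.31 without wildtype mouse 39). Etv5 was also higher (0.47), the ERK inhibitor Spry1 (-0.37) and the ETS factor Etv4 (-0.62) were lower, and Phlda1, the most abundant, overlapped between genotypes at 47.1 to 94.6 FPKM. Of 19 other receptor tyrosine kinases tested, 7 were higher (Fgfr2, Fgfr3, Kit, Kdr, Flt1, Tie1 and Ret) and 2 lower (Mertk and Ddr1) in homozygous mice with unadjusted p under 0.05, against 8.65% and 9.32% of the tested genes, and 0 passed adjustment. Fgfr3, a receptor for fibroblast growth factors, was at 4.67 and 5.89, 7.54 and 8.49, and 11.1 and 8.98 FPKM in order of genotype (log2 fold change 0.92, adjusted p = 0.128 in limma), and Ddr1, a collagen receptor and the most abundant of these, at 53.9 and 46.2, 44.9 and 41.5, and 33.6 and 37.7 FPKM (-0.49). Without wildtype mouse 39 the log2 fold changes (all mice in brackets) were 0.39 (0.64) for Fgfr2, 0.75 (0.92) for Fgfr3 and 0.64 (1.15) for Kit. They were 0.53 (0.73) for Kdr, 0.39 (0.63) for Flt1, 0.36 (0.54) for Tie1 and 0.61 (0.47) for Ret. Without mouse 47 they were -0.54 (-0.96) for Mertk and -0.40 (-0.49) for Ddr1. Kdr, Flt1 and Tie1 are receptors of endothelial cells, and Tie1 is itself 1 of the 5 endothelial markers. Over the 110 tested genes of the 11 lists, 17 were higher and 12 lower in homozygous mice with unadjusted p under 0.05, and 0 passed adjustment, against 18.0% and 0.384% of all tested genes.

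Genes with the most similar log2 values over the 6 mice were sought among the 13818 tested genes. Left out were the 10 members, symbols that start with Gm or contain Rik, and identifiers without a symbol. The most alike were Tmie (Pearson r = 0.999), Fam46a (0.995) and Igsf3 (0.994) for Igf1r. They were Neurl1a (0.995), Vax1 (0.995) and Sbk2 (0.993) for Abcb1a, and Wdr33 (0.999), Rad51d (0.990) and Kcnab3 (0.989) for Abcb1b. For the other members the most alike were Vapb (0.994) for Egfr, Cdc5l (0.987) for Erbb2, Lypla1 (0.991) for Erbb3, Col18a1 (0.982) for Met, Uckl1os (0.992) for Pdgfrb, Npr3 (0.997) for Tgfbr2 and Tmem120b (0.992) for Myc. The 6 points of each correlation are the same libraries, and every member had such a gene.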

How the data were processed

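RNA-seq of 6 prostates was analysed from gene-level FPKM that the authors deposited for each mouse. The authors prepared TruSeq Stranded mRNA libraries, aligned the reads to GRCm38/mm10 with HISAT and quantified genes with Cufflinks and Cuffnorm, for which no versions are given in the sources used here. FPKM correct for length and depth, so no count test was run. The 13818 of 47719 genes that averaged 1 FPKM or more were fitted as log2(FPKM + 0.1) with limma 3.58.1 in R 4.3.3 (trended prior), with Benjamini-Hochberg adjustment and a threshold of 0.05. The fit was tested on data simulated with independent normal noise, which held no outlying mice or differences in tissue. Depth was estimated from the lowest values. Positions and transcripts came from GENCODE M21, and 7 of 10 members had a RefSeq promoter.

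The members and the gene lists were chosen with earlier results of these data known. Besides the members, the text names from each list the gene with the highest mean and the one with the smallest p in homozygous mice, with further genes from the lists named after their values were seen, and the 3 genes most alike to each member, of which only the first is given for 7 members. Whether the mice were litter mates is not stated in the labels. Alternatives were other pseudocounts (1 and 0.01), filters (none and 5), quantile and median scaling, no prior trend, each gene alone, leaving out each mouse and, added after seeing the data, the summed Abcb1 pair and the list genes without each wildtype or homozygous mouse (values with no test). A luminal marker of the list is not reported here.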

Additional observations from a re-analysis of the deposited data

How the results depend on the processing

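No member passed adjustment in any contrast under any of the 14 alternatives that could be run. The side of the threshold is therefore not counted here. Of 417 alternative log2 fold changes of members, 396 kept their sign and 21 changed sign, 17 of these on leaving out 1 mouse. Igf1r and Abcb1a kept their sign against wildtype in all of them, and Abcb1b in all but the sum. For the pair summed, the value in place of Abcb1b was 0.028 (homozygous) and 0.19 (heterozygous against wildtype). Quantile normalization gave Met -0.031 (heterozygous against wildtype) and Tgfbr2 0.0033 (homozygous against heterozygous). Leaving out each mouse, homozygous against wildtype ranged over -1.30 to 0.022 for Egfr, -0.10 to 0.33 for Met, -0.018 to 0.079 for Erbb3 and -0.39 to 0.21 for Tgfbr2. Heterozygous against wildtype ranged over -0.20 to 0.23 for Met, -0.060 to 0.088 for Erbb2 and -0.33 to 0.27 for Tgfbr2. Homozygous against heterozygous ranged over -1.03 to 0.29 for Egfr, -0.018 to 0.22 for Met, -0.44 to 0.16 for Pdgfrb, -0.23 to 0.11 for Tgfbr2 and -0.022 to 0.25 for Myc.

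The filter of 5 FPKM kept 7 members (not Egfr, Abcb1a or Abcb1b), with unadjusted p under 0.05 in 1 for homozygous against wildtype, 0 for heterozygous against wildtype and 1 for the 3 genotypes, which follows from the fewer members tested. Over the 9320 genes tested with that filter, 1769, 630 and 1124 were under 0.05 in the same order. Each gene alone gave 1 member between homozygous and heterozygous mice, and 799 of the 13818 tested genes. Quantile normalization ordered 3 members by allele number (Igf1r, Myc and Abcb1b), and 1145 of the 13818 tested genes. It also put 4 members under 0.05 in homozygous against wildtype mice, and 2238 of the tested genes. Myc was 1 of these 4 members (log2 fold change 0.36, unadjusted p = 0.027, adjusted p = 0.247 in limma). Leaving out each mouse ordered 1 to 3 members by allele number. Over all tested genes it ordered 1972 to 2982, against 1220 of 13818 with all 6 mice. Without wildtype mouse 39, 1 member was under 0.05 in homozygous against wildtype mice and 0 over the 3 genotypes, and a group left with 1 mouse was assumed to vary like the others. The cause was not tested.

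Over all tested genes, adjusted calls in homozygous against wildtype mice numbered 53, and 0 to 60 under the other settings (4 to 128 on leaving out each mouse). Those for the 3 genotypes numbered 14 (0 to 17, and 0 to 10), those between homozygous and heterozygous mice 2 (0 to 2, and 0 to 54), and those in heterozygous against wildtype mice 0 (0 to 0, and 0 to 2). No paired analysis was possible because the genotypes share no animal numbers and the labels name no litter. The 2 mice per genotype and about 121 to 308 fragments for Abcb1b limit the precision.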
